A study of Homo sapiens with 36 samples.

Results

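The effect of adding an siRNA against Hic-5 to an siRNA against CHD9 was read from 12 of the 36 RNA-seq libraries of the series. They were chosen by label alone: 6 libraries labelled siCHD9siHic5 (both siRNAs together) were set against 6 labelled siCHD9siNS (the CHD9 siRNA with a non-silencing siRNA in the place of the Hic-5 siRNA). All 12 came from U2OS, an established human osteosarcoma cell line, in a version that stably expresses the glucocorticoid receptor alpha (GR). Every culture was lipid-transfected, and 48 h later it received 100 nM dexamethasone (dex, a synthetic glucocorticoid) or ethanol vehicle for 8 h. Each condition therefore had 3 vehicle and 3 dex libraries, and the labels call the 3 replicates biological ones made on different days. The other 24 libraries hold the same treatments with a non-silencing control (siNSsiNS), Hic-5 siRNA alone (siHic5siNS), BRM siRNA (siBRMsiNS) and BRM with Hic-5 siRNA (siBRMsiHic5), also 3 vehicle and 3 dex each. The sources used here give neither the siRNA sequences nor whether a single siRNA or a pool was used, and the receptor in these cells is a stably introduced one, so these groups model transient depletion in 1 engineered line.

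Hic-5, encoded by TGFB1I1, is a LIM-domain adaptor of the paxillin family. It sits at focal adhesions, where integrins couple the matrix to the actin skeleton, and it also enters the nucleus and acts there as a coregulator of steroid receptors including GR. CHD9 is an ATP-dependent chromatin remodeler of the chromodomain helicase family, and BRM, encoded by SMARCA2, is a catalytic ATPase of the SWI/SNF remodeling complex. Per the series' description, the study asked whether genes that Hic-5 keeps from being regulated need these remodelers once Hic-5 is gone.

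The 12 libraries held 28.6 to 47 M counts each, and the share of counts on the ribosomal RNA gene RNA28S5 ran from 0.324 to 0.868% with both conditions spread over that range. Of 7 genes listed for the U2OS line, 5 were in the table, with a summed level of 2578 to 3309 CPM (counts per 1 M counts of a library, scaled by upper-quartile factors) in siCHD9siHic5 and 2466 to 3434 in siCHD9siNS. That list holds RUNX2, VIM, SPARC and ALPL, with TERT, CDKN2A and CDKN2B as genes known to be silent or low in this line. TERT and CDKN2A were not among the genes analysed here, and CDKN2B is part of the sum. Leukocyte markers summed to 7.80 to 11.49 CPM against 8.99 to 12.4, and endothelial markers to 7.68 to 14.5 against 10.4 to 17.6. Epithelial markers summed to 229 to 346 CPM in siCHD9siHic5 and 288 to 584 in siCHD9siNS. At most 2 genes of any marker list passed the test below, all lower (with a replicate block within each background 1 endothelial marker was higher and 3 lower). The median log2 fold change was -0.70 over the 7 tested epithelial and -0.82 over the 8 tested endothelial markers. The part of these markers in the results was not tested. In bulk RNA, fewer cells of a kind and less RNA per cell cannot be told apart.

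Many of the interferon-stimulated, mitotic and DNA replication genes were lower, and genes of these groups have known promoter words. These groups hold only a small part of all genes that were lower. Promoters of a few members are shown here, as bases before the transcription start from the RefSeq table (GRCh38.p14). They run 5′ to 3′ on the gene's strand and are trimmed to the part outside annotated untranslated regions. Interferon-stimulated genes carry the interferon-stimulated response element, searched as TTTC, any 2 bases and TTTC again, on both strands, and printed in capitals. The members shown here and in the next paragraph are lower genes of smallest adjusted p, chosen after their values were seen. Each had to hold the word inside a stretch of at least 60 bases outside untranslated regions. Genes on some chromosomes, among them X and Y, were left out of the display, so members with a smaller adjusted p can be missing. The stretches lie at chr12:112938224-112938351 on the plus strand (OAS3), chr10:89392373-89392545 on the plus strand (IFIT1) and chr10:89327747-89327893 on the plus strand (IFIT3).
OAS3: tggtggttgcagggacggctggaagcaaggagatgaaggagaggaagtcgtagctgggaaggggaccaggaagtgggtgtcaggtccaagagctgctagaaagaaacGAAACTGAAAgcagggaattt
IFIT1: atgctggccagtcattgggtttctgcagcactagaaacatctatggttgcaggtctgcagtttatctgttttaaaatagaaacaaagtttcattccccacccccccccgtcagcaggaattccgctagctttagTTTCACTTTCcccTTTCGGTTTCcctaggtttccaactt
IFIT3: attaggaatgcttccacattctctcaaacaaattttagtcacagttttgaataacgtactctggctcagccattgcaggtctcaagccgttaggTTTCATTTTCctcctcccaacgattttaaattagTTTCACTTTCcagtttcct

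Genes of the cell cycle carry other words. Mitotic genes hold the cell cycle homology region, searched as TTTGAA, often with CCAAT boxes, and DNA replication genes hold E2F sites, searched as TTTCCCGC, TTTCGCGC, TTTGCCGC and TTTGGCGC. Both strands were searched, and capitals mark the TTTGAA and CCAAT words in TOP2A and ECT2 and the E2F words in MCM6 and PCNA. The 2 E2F stretches of MCM6 are each 2 overlapping words, 1 on either strand. These stretches lie at chr17:40417951-40418146 on the minus strand (TOP2A), chr3:172750476-172750681 on the plus strand (ECT2), chr2:135876444-135876693 on the minus strand (MCM6) and chr20:5126627-5126785 on the minus strand (PCNA).
TOP2A: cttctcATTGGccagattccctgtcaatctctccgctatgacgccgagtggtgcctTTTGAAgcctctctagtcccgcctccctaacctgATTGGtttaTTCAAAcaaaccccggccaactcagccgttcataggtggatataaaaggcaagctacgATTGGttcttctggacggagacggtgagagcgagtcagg
ECT2: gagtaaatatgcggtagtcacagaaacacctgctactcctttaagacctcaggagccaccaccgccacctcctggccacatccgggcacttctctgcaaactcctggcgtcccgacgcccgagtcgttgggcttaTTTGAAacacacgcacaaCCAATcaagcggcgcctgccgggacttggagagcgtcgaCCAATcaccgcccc
MCM6: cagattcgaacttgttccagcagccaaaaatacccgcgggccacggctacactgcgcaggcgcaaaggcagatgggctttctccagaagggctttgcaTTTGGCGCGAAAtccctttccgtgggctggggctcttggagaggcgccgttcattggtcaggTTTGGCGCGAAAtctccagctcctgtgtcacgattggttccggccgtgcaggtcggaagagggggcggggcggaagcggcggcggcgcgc
PCNA: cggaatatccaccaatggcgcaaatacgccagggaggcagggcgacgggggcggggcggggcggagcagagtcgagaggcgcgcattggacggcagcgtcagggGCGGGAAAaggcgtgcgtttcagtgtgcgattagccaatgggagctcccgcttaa

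Within the 250 bases before the start, the interferon word was found in 14 of 23 interferon-stimulated genes with a promoter entry (60.9%) and in 2.27% of all 11557 tested genes with one. The TTTGAA word was in 17 of 29 mitotic genes (58.6%, against 8.60% of all) and CCAAT in 25 of 29 (86.2%, against 34.4%). An E2F word stood in 15 of 35 replication genes (42.9%, against 4.27%). Entries exist for 77.9% of the tested genes, under the 80% needed to compare sets, so these shares describe the genes shown and support no comparison. A match is a run of letters, not a site shown to be bound.

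TGFB1I1 (Entrez 7041), the target of the added siRNA, was lower in every siCHD9siHic5 library. In vehicle it stood at 41.3, 45.7 and 33.4 CPM in the siCHD9siNS libraries and at 7.37, 9.11 and 5.93 in siCHD9siHic5. With dex the siCHD9siNS libraries had 35.0, 42.5 and 33.0 CPM and the siCHD9siHic5 libraries 8.24, 7.93 and 5.91. The groups did not overlap. The log2 fold change was -2.38 ± 0.22 (SE, 3 replicate sums per condition, adjusted p = 9.08e-06), which left 19.2% of the siCHD9siNS level. Here and below, log2 fold changes are siCHD9siHic5 against siCHD9siNS over both hormones, ± gives their SE, and adjusted p comes from edgeR's quasi-likelihood test with Benjamini-Hochberg adjustment.

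CHD9 (Entrez 80205), the target both conditions share, was higher in the libraries labelled siCHD9siHic5. In vehicle the siCHD9siNS libraries had 59.5, 51.5 and 69.3 CPM of CHD9, and the libraries labelled siCHD9siHic5 had 143, 110 and 116. With dex the values were 89.2, 58.2 and 83.7 against 142, 99.9 and 114 CPM. Neither pair of groups overlapped, and CHD9 rose by 0.83 ± 0.16 (adjusted p = 0.00131). The 6 siNSsiNS libraries lay between 78.1 and 97.4 CPM, so that the CHD9 transcript in the libraries labelled siCHD9siHic5 was above the range of cells given no CHD9 siRNA. This goes against the label. The siCHD9siNS libraries lay below the siNSsiNS range in vehicle. With dex 1 of them lay below it, at 58.2 CPM, and those at 89.2 and 83.7 CPM lay inside it. Nothing below is therefore assigned to loss of CHD9, and every value describes the libraries labelled siCHD9siHic5 against those labelled siCHD9siNS. In this contrast the added Hic-5 siRNA and the higher CHD9 transcript cannot be told apart.

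**Figure D1:**
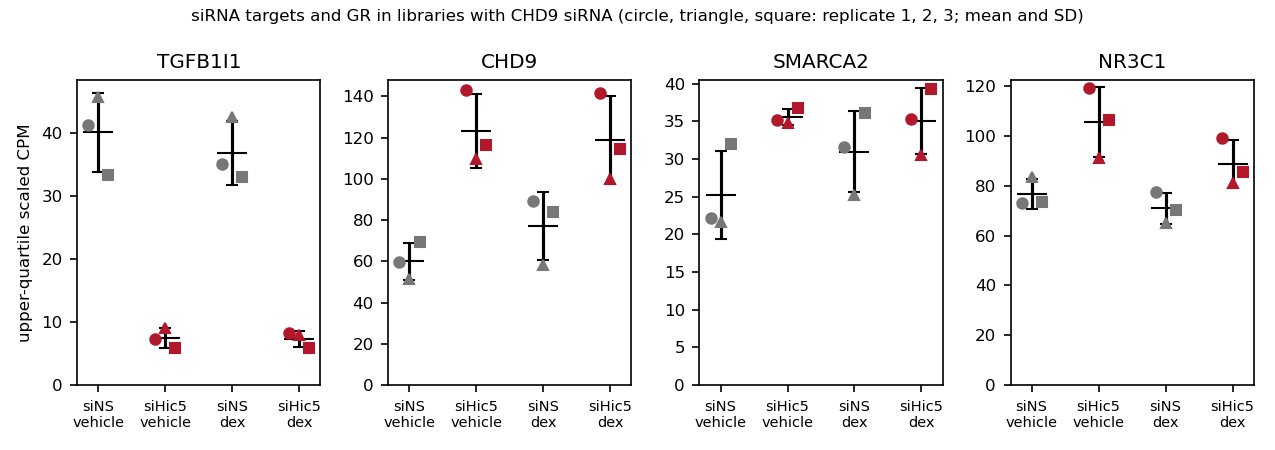
Level of TGFB1I1, CHD9, SMARCA2 and NR3C1 in each library (y axis, upper-quartile scaled CPM) by siRNA condition and hormone. Symbols mark the replicate number and bars the mean ± SD of 3 libraries. TGFB1I1 is at 5.91 to 9.11 CPM in all siCHD9siHic5 libraries, and CHD9 is at 99.9 to 143 CPM there against 51.5 to 89.2 in siCHD9siNS.

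NR3C1 (Entrez 2908), which encodes GR, had 73.2, 83.4 and 73.4 CPM in vehicle with siCHD9siNS and 119, 91.1 and 107 with siCHD9siHic5. With dex it had 77.3, 65.0 and 70.4 against 99.3, 81.2 and 85.6 CPM. The siCHD9siHic5 libraries were higher in both hormones, and NR3C1 rose by 0.39 ± 0.13 (adjusted p = 0.0247). This call rests on the full set: the adjusted p of NR3C1 was 0.0573, 0.0583 and 0.0689 without siCHD9siNS replicate 1, 2 and 3, and 0.120 without siCHD9siHic5 replicate 1. By limma voom with an estimated correlation between the hormones, adjusted p was 0.0945 for NR3C1. SMARCA2 (Entrez 6595) differed by 0.34 ± 0.15 (adjusted p = 0.103), and by 0.50 (adjusted p = 0.0287) without siCHD9siNS replicate 3. With a replicate block within each background SMARCA2 was called, at 0.35 (adjusted p = 0.0328).

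Over both hormones, 5152 of 14835 tested genes were called, a background of 34.7% at an adjusted p under 0.05. Of these, 2069 rose (13.9% of tested genes) and 3083 fell (20.8%). Counts of the gene lists below are to be read against these shares. The median size was 0.63 for those that rose and -0.71 for those that fell, and 334 rose and 855 fell more than 2-fold. The tail was longer downward: 23 genes rose and 159 fell more than 4-fold. With trimmed-mean scaling in place of upper-quartile scaling, 2468 rose and 2679 fell, and the median of all tested genes, -0.06 here, was -0.0043. With a replicate block within each background 6452 genes (43.5%) were called, 2651 higher (17.9%) and 3801 lower (25.6%).

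The largest changes were ranked among called genes of mean CPM 1 or more whose groups did not overlap within either hormone. There the largest rise was that of HMOX1, the heme oxygenase that degrades heme to iron, biliverdin and carbon monoxide. In vehicle HMOX1 went from 141, 122 and 145 CPM to 891, 2497 and 1045, and with dex from 80.3, 121 and 109 to 567, 2416 and 812. Replicate 2 was the highest siCHD9siHic5 library in both hormones. No siCHD9siHic5 value reached down to a siCHD9siNS one of the same hormone, which the ranking required. HMOX1 rose by 3.51 ± 0.43 (adjusted p = 5.82e-05). TFEC, a transcription factor of the MiT family, rose by 2.38 ± 0.34 (adjusted p = 0.000145). Its vehicle levels were 3.34, 3.63 and 4.57 CPM against 20.3, 25.6 and 15.8, and its dex levels 2.70, 2.71 and 5.20 against 18.3, 20.4 and 15.6. NR0B1, the orphan nuclear receptor DAX-1, which represses other nuclear receptors, rose by 2.30 ± 0.33 (adjusted p = 0.000152). It moved from 2.47, 2.26 and 3.30 CPM to 9.62, 21.4 and 10.2 in vehicle, and from 1.32, 1.53 and 2.54 to 7.45, 8.90 and 9.37 with dex.

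The rest of the 12 largest rises lay between 2.23 and 2.75. They were ZNF702P, a zinc-finger pseudogene (2.75), LCE1B, a cornified envelope gene (2.41), COL17A1, a hemidesmosome collagen (2.40), KCNH8, a potassium channel (2.28), WNT9A, a WNT ligand (2.26), HIST1H2BD, a histone H2B (2.24), TRIML2 (2.24), and the long non-coding RNAs LINC00520 (2.23) and LINC01164 (2.23). LINC00520 missed the threshold without siCHD9siNS replicate 1, 2 or 3 or siCHD9siHic5 replicate 2 (adjusted p of 0.0592 to 0.145). LINC01164 did so without siCHD9siNS replicate 1 (0.0677) or siCHD9siHic5 replicate 2 (0.100).

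In the same ranking the largest fall was that of MYL4, an embryonic and atrial myosin light chain. In vehicle MYL4 went from 8.88, 20.4 and 6.64 CPM to 0.231, 0.218 and 0.0649, and with dex from 5.92, 12.5 and 6.25 to 0.206, 0.0312 and 0.132. The log2 fold change of MYL4 was -6.13 ± 0.62 (adjusted p = 1.70e-05), to 1.43% of the siCHD9siNS level. KISS1, which encodes kisspeptin, fell from 130, 114 and 80.9 CPM to 4.48, 3.33 and 10.1 in vehicle and from 80.6, 87.4 and 63.7 to 3.24, 5.31 and 8.86 with dex (-3.98 ± 0.55, adjusted p = 0.000121). STRA6, the cellular receptor for retinol binding protein, went from 32.5, 53.8 and 21.4 CPM to 1.99, 1.58 and 3.11 in vehicle and from 27.1, 40.2 and 16.1 to 1.94, 1.65 and 2.62 with dex (-3.88 ± 0.52, adjusted p = 0.000107). In all 3 genes the lowest siCHD9siNS library was several-fold above the highest siCHD9siHic5 one.

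EDN2, the vasoconstrictor peptide endothelin 2 (-4.06 ± 0.67), CRYBA4, a lens crystallin gene (-5.40 ± 1.08), and TMEM37 (-3.71 ± 0.29) also fell. SAA2, an acute-phase serum amyloid A gene with a near-identical neighbour in SAA1, fell too (-4.06 ± 0.88), with an adjusted p of 0.0748 by limma voom with an estimated correlation. The other falls of the 12 were APOL3 (-3.96), FOXS1, a forkhead factor (-3.61), PRR9 (-3.57), TMEM176A (-3.55) and SEC16B (-3.45).

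**Figure D2:**
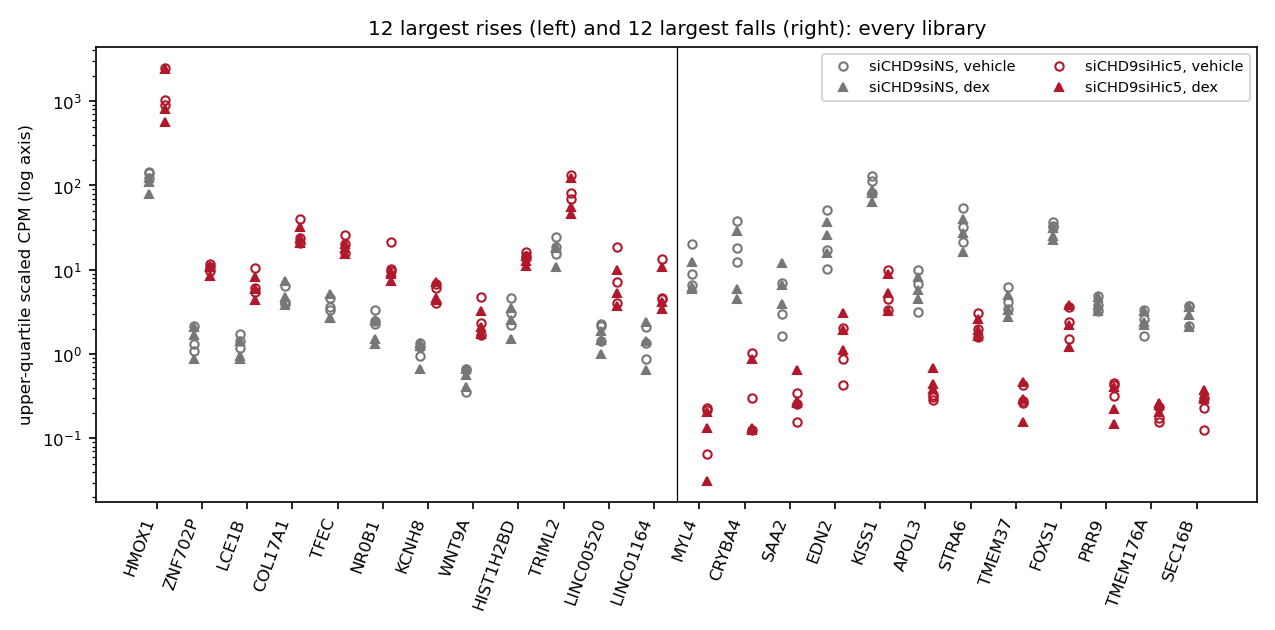
The 12 genes with the largest rise (left) and the 12 with the largest fall (right) among called genes whose groups do not overlap; every library is a point on a log axis of CPM (gray siCHD9siNS, red siCHD9siHic5, circles vehicle, triangles dex). Every red point of a gene lies beyond every gray point of the same hormone, and MYL4 drops from 5.92 or more to 0.231 or less.

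Genes of mitosis fell as a group. Of 35 mitotic genes tested 23 fell and 1 rose, with a median of -0.65 against -0.06 over all tested genes. AURKA, the kinase of spindle poles, fell by 1.33 ± 0.19 (adjusted p = 0.000150). It stood at 111, 108 and 110 CPM in vehicle with siCHD9siNS and at 31.3, 43.9 and 51.2 with siCHD9siHic5, and with dex at 103, 129 and 97.1 against 33.8, 48.2 and 52.0. The groups lay well apart. TOP2A, the DNA topoisomerase that separates sister chromatids and whose promoter is printed above, fell by 0.90 ± 0.14 (adjusted p = 0.000299). Its levels were 500, 526 and 526 CPM against 241, 256 and 363 in vehicle and 608, 630 and 539 against 257, 276 and 384 with dex. Replicate 3 was the highest siCHD9siHic5 library in both hormones. ECT2, a guanine nucleotide exchange factor of the cleavage furrow, fell by 0.81 ± 0.13, from 73.7, 87.9 and 70.6 CPM to 44.6, 47.2 and 49.2 in vehicle and from 90.5, 95.2 and 76.9 to 45.1, 44.7 and 51.0 with dex. CCNB1, cyclin B1, fell by 0.92 ± 0.16. The 1 mitotic gene that rose was CCNB2, cyclin B2 (0.43 ± 0.15, adjusted p = 0.0310), chosen after its values were seen, and it missed the threshold without siCHD9siNS replicate 1 or 2 or siCHD9siHic5 replicate 3 (adjusted p of 0.0616 to 0.104) and was at 0.23 without siCHD9siHic5 replicate 2 (adjusted p = 0.212).

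Genes of DNA replication moved the same way. Of 41 tested 27 fell and none (0) rose, with a median of -0.67. MCM7, a subunit of the replicative helicase, fell by 0.94 ± 0.13 (adjusted p = 0.000113), from 290, 268 and 266 CPM to 126, 131 and 151 in vehicle and from 243, 248 and 242 to 117, 132 and 159 with dex. RFC5, a subunit of the clamp loader, fell by 1.40 ± 0.21, from 36.2, 33.1 and 31.5 CPM to 11.1, 8.70 and 16.5 in vehicle and from 34.7, 30.8 and 29.1 to 12.9, 8.52 and 16.0 with dex. The groups did not overlap for either gene. RFC4 fell by 0.91 and FEN1, the flap endonuclease, by 0.92 on the log2 scale. Of the 2 replication genes printed above, MCM6 fell by 1.12 ± 0.24, with 116, 104 and 116 CPM against 42.2, 38.8 and 67.7 in vehicle, and PCNA, the sliding clamp, fell by 0.44 ± 0.12 (adjusted p = 0.00897). The replication count was 15 without siCHD9siHic5 replicate 1 and 17 without siCHD9siHic5 replicate 2, so it leans on those libraries, whereas the mitotic count stayed between 18 and 28 whichever replicate of any condition was left out.

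The histone genes tested did not follow. Of 26 genes on the list of replication-dependent histones 12 were tested, and of these 5 rose and 1 fell, with a median of 0.63. The calls describe only the tested members. Many are near-identical copies, so the split of reads among them is uncertain. HIST2H2BE rose by 1.18 ± 0.18 (adjusted p = 0.000243), from 11.1, 12.6 and 15.9 CPM to 25.8, 29.5 and 32.2 in vehicle. HIST1H2BD rose by 2.24 ± 0.40, from 3.10, 2.22 and 4.59 CPM to 14.7, 16.4 and 14 in vehicle and from 2.52, 1.49 and 3.52 to 12.9, 11.1 and 14.6 with dex. Both H2B genes were higher in all 6 siCHD9siHic5 libraries. The member that fell, H1F0 (-0.57 ± 0.15), encodes a linker histone that is not replication-dependent although the list holds it. Only 2 of the histone genes were called as rising without siCHD9siNS replicate 1 or 2 or siCHD9siHic5 replicate 1 or 3.

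Interferon-stimulated genes, which encode antiviral proteins, were lower. Of 29 tested 17 fell and none (0) rose, with a median of -1.03. OAS3, a sensor of double-stranded RNA that activates RNase L, stood at 24.4, 26.5 and 24.7 CPM in vehicle with siCHD9siNS and at 8.03, 10.3 and 11.6 with siCHD9siHic5, and with dex at 27.6, 35.0 and 20.6 against 8.45, 12.6 and 11.9 (-1.33 ± 0.20, adjusted p = 0.000232). IFIT1, which binds uncapped viral RNA, had 4.13, 5.52 and 6.71 CPM against 1.59, 1.52 and 1.86 in vehicle (-1.49 ± 0.24). IFIT3, its partner, had 17.4, 17.4 and 15.2 against 5.63, 6.37 and 6.16 (-1.34 ± 0.28). All 3, whose promoters hold the word printed above, had non-overlapping groups in vehicle. MX2, a dynamin-like restriction factor, fell by 2.72 ± 0.32 (adjusted p = 4.77e-05), HERC6, an E3 ligase, by 1.86 ± 0.21 and PARP9 by 1.18. The largest falls on the list were XAF1 (-4.03) and BST2, tetherin (-3.57), both named after their values were seen. Neither is among the 12 largest falls above, although SEC16B (-3.45) is. Each therefore missed at least 1 condition of that ranking: a call, a mean CPM of 1 or more, or groups that do not overlap. STAT2 (0.26) and DDX58 (0.30) did not pass the test, DDX58 being the 1 rise called under the block (0.29, adjusted p = 0.0396).

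Most tested genes on the list of WNT ligands, receptors and feedback inhibitors were lower. Of 27 tested 15 fell and 1 rose, with a median of -0.83. FZD1, a WNT receptor, fell by 0.91 ± 0.17 (adjusted p = 0.000869). NOTUM, a secreted enzyme that inactivates WNT by removing its lipid, fell by 1.57 ± 0.31 (adjusted p = 0.00136), from 6.85, 7.53 and 6.10 CPM to 2.89, 1.03 and 2.31 in vehicle and from 5.10, 6.14 and 3.81 to 2.06, 1.37 and 2.36 with dex. SFRP1, a secreted WNT antagonist, fell by 1.05 ± 0.22, with 18.5, 39.0 and 21.5 CPM against 14.8, 11.4 and 13.9 in vehicle. Among the members named here a receptor and antagonists were thus lower together. So was LGR5, an R-spondin receptor and WNT target (-2.64), named after its value was seen. LGR5 was short of the threshold without siCHD9siNS replicate 2 (adjusted p = 0.0502). AXIN2, the common feedback gene of the pathway, was at -0.06 and did not pass the test. WNT9A was the 1 member that rose (2.26 ± 0.33, adjusted p = 0.000174), from 0.353, 0.670 and 0.647 CPM to 2.31, 4.79 and 1.69 in vehicle, and it entered the test only through these libraries: without siCHD9siHic5 replicate 1, 2 or 3 it fell below the filter on low counts and was not tested.

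Subunits of the respiratory chain and ATP synthase were lower by smaller steps. Of 36 tested 17 fell and none (0) rose, with a median of -0.35. COX7A2, a subunit of cytochrome c oxidase, fell by 1.57 ± 0.13 (adjusted p = 5.96e-06), from 135, 142 and 125 CPM to 41.6, 39.7 and 45.4 in vehicle and from 102, 119 and 106 to 38.8, 39.7 and 41.5 with dex. The siCHD9siHic5 libraries lay close to each other and far below the siCHD9siNS libraries. UQCRQ, a subunit of complex III, fell by 1.19 ± 0.16, NDUFB3 of complex I by 1.04 and CYC1, cytochrome c1, by 0.77. The count of these genes was 9 without siCHD9siHic5 replicate 1, 9 without siCHD9siNS replicate 2 and 11 without siCHD9siNS replicate 3. Ribosomal protein genes had 9 of 38 lower and none (0) higher, close to the background of 20.8% lower. The count was 14 with a replicate block within each background, where 25.6% of all tested genes fell, and 5 without siCHD9siHic5 replicate 1. RPL10A (-0.64 ± 0.11), RPL23 (-0.92), RPL32 (-0.93) and RPS3 (-0.77) fell; ribosomal protein genes have many processed pseudogenes, so their counts are uncertain.

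Among the targets of NRF2, the factor that answers oxidative stress, 6 of 24 rose and 2 fell, with a median of 0.13. The group did not move as one. Beside HMOX1, FTH1, the ferritin heavy chain that stores iron, rose by 1.29 ± 0.25 (adjusted p = 0.00106), from 2768, 2734 and 2600 CPM to 5326, 8132 and 5191 in vehicle and from 2089, 2429 and 2301 to 4809, 7924 and 5208 with dex. Replicate 2 was again the highest siCHD9siHic5 library. GCLM, which helps make glutathione, rose by 0.82 ± 0.14, while GSR, which regenerates it, fell by 0.53 ± 0.12. NQO1, a classical NRF2 target, was at -0.12 and did not pass the test. The count lower was 1 without siCHD9siHic5 replicate 1 or siCHD9siNS replicate 2.

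Near TGFB1I1 itself, 8 of 24 paxillin-family and LIM-domain adaptors fell and none (0) rose, TGFB1I1 being one of the 8. FHL1, a four-and-a-half-LIM-domain protein of muscle and adhesions, fell by 0.90 ± 0.10 (adjusted p = 3.81e-05), from 180, 185 and 169 CPM to 92.3, 81.0 and 101 in vehicle. PDLIM1, an adaptor of alpha-actinin, fell by 2.07 ± 0.37. PXN, paxillin, was at 0.20 and LPXN, leupaxin, at 0.48, and neither of these close relatives of Hic-5 passed the test. The count was 5 without siCHD9siNS replicate 2 and 4 without siCHD9siHic5 replicate 2. Of 34 core focal adhesion and integrin genes 9 fell and 2 rose, against 20.8% lower and 13.9% higher over all tested genes. FERMT2, kindlin-2, an activator of integrins, fell by 1.33 ± 0.23, from 171, 313 and 168 CPM to 77.5, 144 and 68.9 in vehicle and from 216, 247 and 181 to 84.3, 71.5 and 70.2 with dex. PTK2, focal adhesion kinase, rose by 0.62 ± 0.11, from 136, 154 and 153 CPM to 222, 273 and 224 in vehicle, and TLN1, talin, rose by 0.48. TNS1, tensin, fell by 0.89. The count higher was 4 without siBRMsiNS replicate 3, a condition that enters only through the shared spread.

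Contractile genes split by gene. Of 20 smooth-muscle type genes 4 rose and 6 fell: ACTA2, smooth muscle actin, rose by 0.94 ± 0.23 and TPM1, a tropomyosin, fell by 1.33 ± 0.23. The 6 that fell include TGFB1I1, the target of the added siRNA. The count lower was 3 without siCHD9siNS replicate 2, and the count higher was 1 without siCHD9siNS replicate 1, siCHD9siHic5 replicate 2 or siBRMsiHic5 replicate 2. Of 15 striated muscle genes 5 fell and none (0) rose, with a median of -0.66, among them MYL1 (-2.88 ± 0.49) and TNNI1 (-2.57) beside MYL4; the count was 3 without siCHD9siHic5 replicate 1 or siCHD9siNS replicate 2.

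Of 29 TGF-beta ligands, receptors and SMADs 6 were higher and 6 lower, with a median of -0.01; the share lower was close to the background of 20.8%. LTBP1, which tethers latent TGF-beta to the matrix, rose by 1.72 ± 0.22 (adjusted p = 8.64e-05), from 32.7, 25.6 and 36 CPM to 141, 90.4 and 99.0 in vehicle and from 51.8, 42.9 and 47.9 to 187, 135 and 120 with dex. INHBA, the activin A subunit, rose by 1.22 ± 0.21, from 92.8, 159 and 96.0 CPM to 353, 304 and 198 in vehicle. Replicate 1 was the highest siCHD9siHic5 library for both genes. TGFBR3, the co-receptor betaglycan, fell by 1.51 ± 0.18 and SMAD6, an inhibitory SMAD, by 2.12 ± 0.38. Both counts of the family were 3 without siCHD9siNS replicate 3. Of 23 TGF-beta target genes 1 rose and 5 fell, again close to the background, among them TSPAN2 (-1.62 ± 0.32), LRRC15 (-1.47) and SNAI2, the factor Slug (-0.71). CTGF (-0.71) did not pass the test. The target count lower was 3 without siNSsiNS replicate 1, siCHD9siNS replicate 1 or 2 or siCHD9siHic5 replicate 3.

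Matrix genes leaned upward, with 8 of 35 collagens, laminins and glycoproteins higher, 5 lower and a median of 0.24. COL5A2, a fibrillar collagen, rose by 1.00 ± 0.23, whereas LOXL2, a collagen cross-linking enzyme, fell by 1.77 ± 0.18 (adjusted p = 1.70e-05), from 115, 149 and 110 CPM to 34.0, 28.3 and 42.4 in vehicle and from 112, 155 and 98.5 to 38.0, 33.6 and 41.1 with dex. The laminin chain LAMB1 fell by 0.70 ± 0.14. The count higher was 5 without siCHD9siHic5 replicate 1 and 4 without siCHD9siNS replicate 2. Of 27 matrix proteases and inhibitors 5 rose and 8 fell, and under the block 3 rose and 12 fell. MMP9, gelatinase B, had 224, 51.0 and 110 CPM in vehicle with siCHD9siNS and 29.3, 9.42 and 33.4 with siCHD9siHic5, and with dex 115, 38.7 and 57.3 against 17.2, 10.0 and 24.2 (-2.28 ± 0.51, adjusted p = 0.00311). Its replicates differed several-fold within a group, and still no siCHD9siHic5 library reached the siCHD9siNS range. PLAT, tissue plasminogen activator, fell by 0.77 ± 0.13, ADAMTS12 fell by 0.72 ± 0.15, and SERPINE2, protease nexin 1, rose by 0.78 ± 0.19. The protease count lower was 4 without siCHD9siNS replicate 1 or 2 or siCHD9siHic5 replicate 1, and the count higher was 3 without siCHD9siNS replicate 1 or 3 or siCHD9siHic5 replicate 2 and 2 without siCHD9siHic5 replicate 1.

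**Figure D3:**
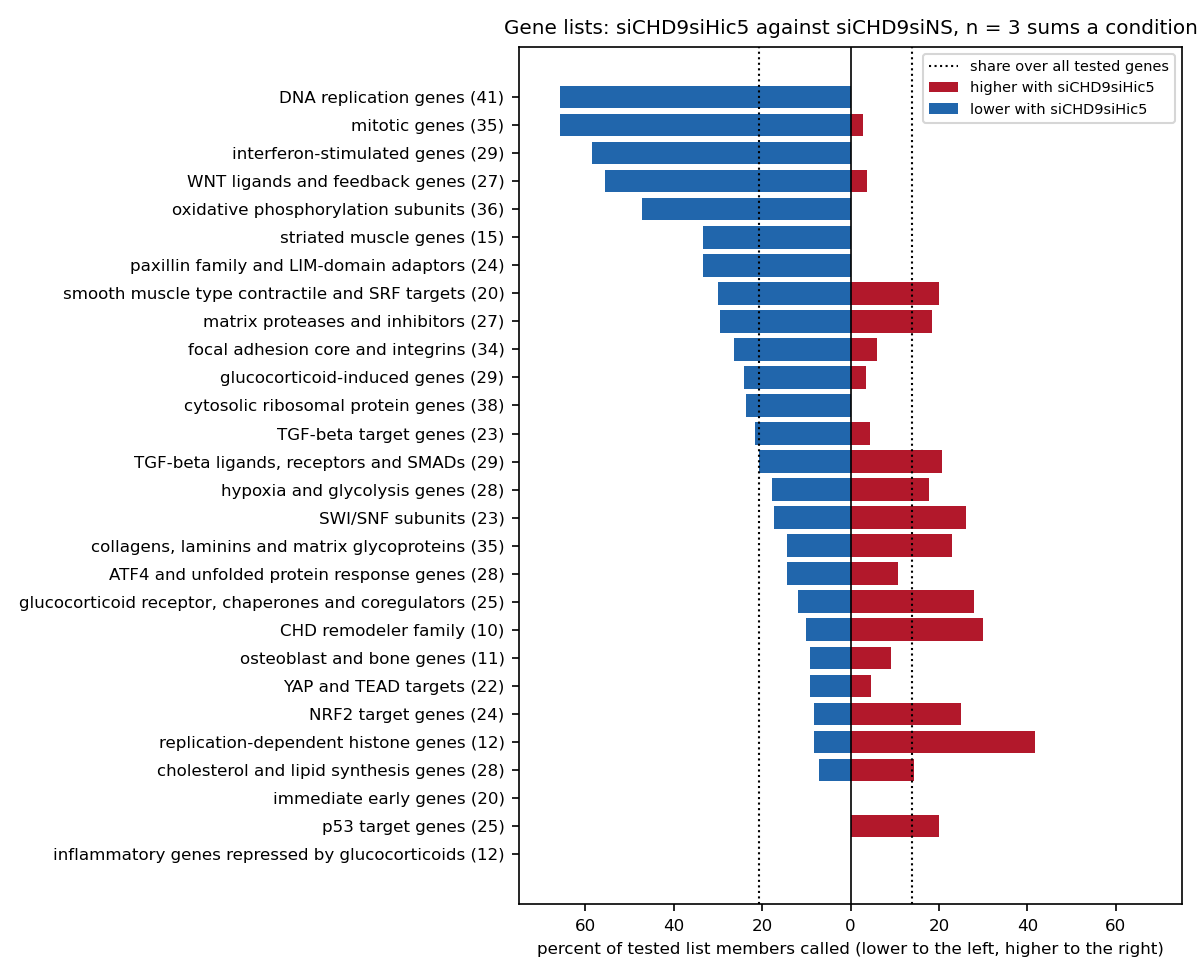
Percent of each list's tested members called lower (left) and higher (right) in siCHD9siHic5 against siCHD9siNS over both hormones; dotted lines give the share over all tested genes, 20.8% lower and 13.9% higher. Mitotic, DNA replication, interferon and WNT genes reach furthest to the left, and the 12 histone genes furthest to the right. TGFB1I1, the target of the added siRNA, counts among the falls of the paxillin-family and the smooth-muscle lists.

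On the list of GR signalling genes the 4 called members of smallest p were coactivators. Of 25 genes for the receptor, its chaperones and its coregulators 7 rose and 3 fell, and the 3 that fell are not reported here. All 3 members of the p160 coactivator family, which link ligand-bound receptors to acetyltransferases, were higher. NCOA2, the coregulator GRIP1, rose by 0.93 ± 0.11 (adjusted p = 5.00e-05), from 23.7, 30.5 and 32.8 CPM to 76.0, 65.4 and 69.5 in vehicle and from 52.0, 52.0 and 46.4 to 89.3, 73.1 and 72.3 with dex. NCOA1, SRC-1, rose by 0.80 ± 0.10, from 68.8, 77.5 and 75.4 CPM to 153, 142 and 123 in vehicle and from 86.8, 86.8 and 84.5 to 159, 136 and 123 with dex. NCOA3 rose by 0.77 ± 0.10, from 66.6, 68.5 and 76.0 CPM to 148, 135 and 122 in vehicle. EP300, the acetyltransferase p300, rose by 0.58 ± 0.12, from 136, 149 and 138 CPM to 264, 272 and 224 in vehicle and from 200, 211 and 172 to 270, 245 and 216 with dex. For all 4 genes the siCHD9siHic5 libraries were above the siCHD9siNS libraries in both hormones.

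Of 29 genes that glucocorticoids induce 1 rose and 7 fell, with a median of -0.26, and the share lower was close to the background of 20.8%. With a replicate block within each background 2 rose and 13 fell, where 25.6% of all tested genes fell. LCN2, lipocalin 2, fell by 1.54 ± 0.29 (adjusted p = 0.00106) and KLF15, a Kruppel-like factor of metabolic genes, by 0.82 ± 0.20, the latter with an adjusted p of 0.201 by limma voom with an estimated correlation. TSC22D3 (-0.46), FKBP5 (0.41) and PER1 (-0.52), all standard dex-induced genes, did not pass the test; under the block TSC22D3 (-0.49, adjusted p = 0.0115) and FKBP5 (0.42, adjusted p = 0.0461) did. The count lower was 4 without siCHD9siNS replicate 1 or siCHD9siHic5 replicate 1 or 3, and 2 without siCHD9siNS replicate 2. Of 12 inflammatory genes that glucocorticoids repress none (0) was called, with 1 higher and 1 lower under the block.

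Among chromatin remodelers, 6 of 23 SWI/SNF subunits rose and 4 fell, against 13.9% higher and 20.8% lower over all tested genes. BCL7A rose by 1.26 ± 0.20, SMARCD1 by 0.73 ± 0.11 and BCL7B by 0.82, while SMARCD3 fell by 1.19 ± 0.21. The ATPase SMARCA4 was at 0.04 and did not pass the test. The count lower was 2 without any 1 replicate of siCHD9siNS or without siCHD9siHic5 replicate 1 or 2. Of 10 CHD family genes 3 rose and 1 fell. CHD2 rose by 0.60 ± 0.17 beside CHD9, with an adjusted p of 0.0524 without siCHD9siNS replicate 1, and CHD1L fell by 0.45.

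The other lists gave fewer calls, to be read against 13.9% higher and 20.8% lower over all tested genes. Of 25 p53 targets 5 rose and none (0) fell, including XPC, a damage sensor (1.12 ± 0.18), and BTG2, an anti-proliferative gene (1.73 ± 0.35), while CDKN1A (0.09) and MDM2 (0.15) did not pass the test; the count was 2 without siCHD9siNS replicate 1 or 2 or siCHD9siHic5 replicate 2 or 3, and 3 without most others. Of 28 hypoxia and glycolysis genes 5 rose and 5 fell, both near the shares over all tested genes. Called members included CA12, a carbonic anhydrase, at -1.94 ± 0.29, LDHA at -1.11, ENO1 at -0.89 ± 0.14 and KDM3A, a histone demethylase, at 0.66. Of 28 cholesterol and lipid synthesis genes 4 rose and 2 fell, with INSIG1 at 1.26 ± 0.34, SREBF2 at 0.62 ± 0.12 and MSMO1 at -1.04; under the block 9 rose, and without siCHD9siNS replicate 1 or 2 the count was 2. Of 28 ATF4 and unfolded protein response genes 3 rose and 4 fell, with STC2 at -2.28 ± 0.47; no rise (0) was left without siCHD9siNS replicate 1 or siCHD9siHic5 replicate 2, and the range over all removals was 0 to 5. YAP targets had 1 of 22 higher and 2 lower, with AMOTL1 at 0.92 ± 0.17, and neither fall was left (0) without siCHD9siNS replicate 1 or siCHD9siHic5 replicate 2. Osteoblast and bone genes had 1 of 11 on either side, the fall being TNFRSF11B, osteoprotegerin (-1.42 ± 0.30). Of 20 immediate early genes none (0) was called, and 4 rose under the block.

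In vehicle alone 5577 of 15179 tested genes (36.7%) differed between siCHD9siHic5 and siCHD9siNS, with 2265 higher (14.9%) and 3312 lower (21.8%). With dex alone 4349 (28.7%) differed, with 1711 higher (11.3%) and 2638 lower (17.4%). The dex count was 6729 with a replicate block within each background, and its split was 2185 higher to 2234 lower under trimmed-mean scaling. The hormones shared 3642 genes in the same direction, 65.3% of the vehicle and 83.7% of the dex calls, and no gene (0) was called in opposite directions. Across genes the vehicle and dex log2 fold changes had a Pearson correlation of 0.901; genes are not independent, and libraries of 1 number are paired across hormones. In both hormones 5682 genes had non-overlapping groups, 16.2% of tested genes higher and 22.1% lower.

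Whether dex acted differently in siCHD9siHic5 was asked by the difference of the 2 dex responses. Without a block no gene (0 of 15179, 0%) was called at an adjusted p under 0.05 by edgeR, 407 had an unadjusted p under 0.05, and DESeq2 called 12. With a term for each condition and replicate number 260 genes (1.71%) were called, 69 with a more positive (0.455%) and 191 with a more negative (1.26%) dex response in siCHD9siHic5 (37 and 271 without scaling factors). This count rests on single pairs of libraries. It was 0 without siCHD9siNS replicate 1 or 2 or siCHD9siHic5 replicate 3, 1 without siCHD9siHic5 replicate 2, 134 without siCHD9siHic5 replicate 1 and 343 without siCHD9siNS replicate 3.

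TXNIP, an inhibitor of thioredoxin and of glucose uptake, illustrates a positive difference. In vehicle it had 59.1, 40.4 and 39.1 CPM with siCHD9siNS and 12.4, 7.99 and 8.52 with siCHD9siHic5, and with dex 139, 120 and 80.5 against 67.5, 75.9 and 42.2. The siCHD9siHic5 libraries started lower and gained more in fold, a difference of 1.37 on the log2 scale (adjusted p = 0.0407 with the block). LOC100190986, an uncharacterised non-coding RNA, showed the reverse: 46.9, 43.8 and 58.3 CPM against 219, 219 and 173 in vehicle, and 113, 93.2 and 111 against 214, 139 and 154 with dex (-1.37, adjusted p = 0.0131). It was already high in vehicle with siCHD9siHic5 and did not rise further there. NCOA2 (-0.65, adjusted p = 0.0235), EP300 (-0.52, 0.0131) and NCOA3 (-0.34, 0.0462) belong to the same side, since their gap between conditions was narrower with dex than in vehicle. The 10 genes with the largest differences all missed the threshold without siCHD9siNS replicate 1 or 2 or siCHD9siHic5 replicate 2 or 3.

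**Figure D4:**
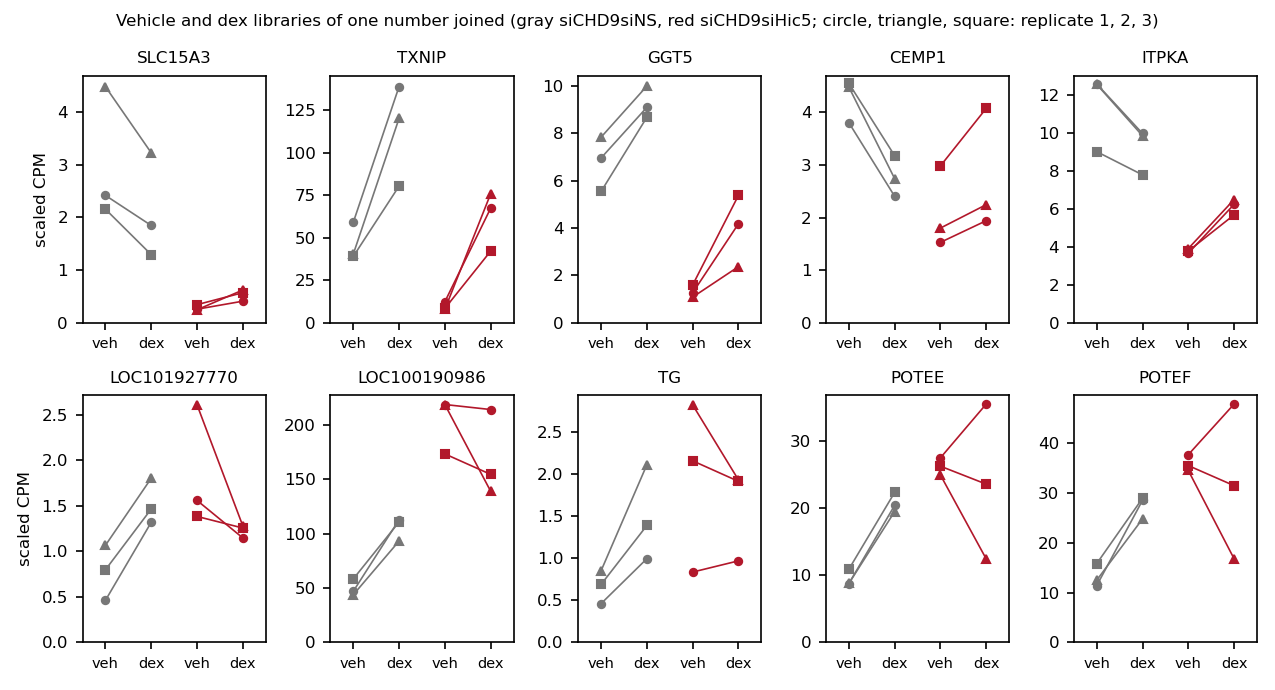
Levels (scaled CPM) of the 5 genes with the largest positive and the 5 with the largest negative difference of the dex response, vehicle and dex libraries of 1 number joined by a line (gray siCHD9siNS, red siCHD9siHic5). TXNIP starts lower in red (7.99 to 12.4 CPM) and gains more in fold, and LOC100190986 is flat or falling in red and rises in gray.

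Genes that differed by genomic span also differed in direction. The median span was 48.7 kb for genes that rose, 23.6 kb for those that fell and 29.5 kb for all tested genes. In 4 equal bins of genes from the shortest to the longest span the median log2 fold change was -0.14, -0.11, -0.04 and 0.06. In vehicle it ran from -0.21 to 0.11 and with dex from -0.07 to 0.00. Hic-5 siRNA on the control background gave -0.05, -0.04, -0.03 and -0.00 over the same bins, and on the BRM background -0.05, -0.04, -0.02 and -0.08. Genes with a more positive dex difference had a median span of 8.78 kb and those with a more negative one 99.8 kb. These are descriptions across genes, with no test.

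The same Hic-5 siRNA was also added to the control siRNA and to the BRM siRNA, in libraries that share none with the 12. On the control background 8230 genes (55.5%) were called, 26.4% of tested genes higher and 29.1% lower, and on the BRM background 2860 (19.3%), 7.29% higher and 12% lower. With the control background the CHD9 background shared 3387 called genes in the same direction, 65.7% of its own and 41.2% of the other's, and 230 were called in opposite directions. With the BRM background it shared 1259, 24.4% of its own and 44.0% of the other's, and 145 were opposite. In all 3 backgrounds 1115 genes moved the same way, 397 up and 718 down. TGFB1I1 itself fell by 2.17, 2.38 and 2.41 on the log2 scale on the control, CHD9 and BRM backgrounds, and neither difference was called (adjusted p = 0.669 and 0.968).

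The effect on the CHD9 background differed from that on the control background in 3007 genes (20.3%), 1405 in the positive (9.47%) and 1602 in the negative direction (10.8%), by the test of the difference itself. Since the CHD9 transcript also differed between siCHD9siHic5 and siCHD9siNS, its part and that of Hic-5 siRNA cannot be told apart. This holds for the differences from the BRM background too. Mitotic genes stood out in direction: 21 of 35 fell less on the CHD9 than on the control background and none (0) fell more. All 35 mitotic genes fell on the control background, with a median of -1.47. CCNB1 was at -0.92 against -1.82 (difference 0.90, adjusted p = 0.0107) and ECT2 at -0.81 against -1.78 (0.97, 0.00243). ECT2, at 70.6 to 95.2 CPM in siCHD9siNS, was thus still lower with Hic-5 siRNA on both backgrounds. COX7A2 also fell less (-1.57 against -2.49, difference adjusted p = 0.00225), as did FERMT2 (-1.33 against -2.80, 0.00473), FHL1 (difference 0.69, 0.00399) and ADAMTS12 (-0.72 against -2.62, 5.81e-05).

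Another set of genes fell on the CHD9 background and rose on the control background. MMP9 was at -2.28 against 1.55 (difference -3.83, adjusted p = 0.00192), TNFRSF11B at -1.42 against 1.53 (-2.95, 0.000417), NOTUM at -1.57 against 1.71 (-3.28, 0.000223), SFRP1 at -1.05 against 1.05 (-2.11, 0.000437), PLAT at -0.77 against 0.52 (-1.29, 0.000271) and LAMB1 at -0.70 against 0.43 (-1.13, 0.00152). For NOTUM the means over 6 libraries were 14.7 CPM in siNSsiNS, 48.0 in siHic5siNS, 5.92 in siCHD9siNS and 2.00 in siCHD9siHic5. The siCHD9siNS mean of NOTUM was below the siNSsiNS mean, a gap that was not tested, and the mean of the libraries labelled siCHD9siHic5 was lower again. WNT genes as a list had 1 positive and 6 negative differences of 27, and glucocorticoid-induced genes 0 and 6 of 29. Of 35 matrix genes 9 differed negatively and 1 positively, 5 negatively without siNSsiNS replicate 1.

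Some rises were larger on the CHD9 background than on the control background. NR0B1 was at 2.30 against 0.09 (difference 2.21, adjusted p = 0.00404), TFEC at 2.38 against 0.32 (2.07, 0.00775), NCOA2 at 0.93 against 0.28 (0.65, 0.00869), NCOA3 with a difference of 0.59 (0.00888) and EP300 at 0.58 against -0.11 (0.70, 0.00855). LTBP1 rose less (1.72 against 2.87, difference -1.15, 0.0158), and BCL7A had a difference of -1.64 (0.00103). CHD9 itself was at 0.83 against -0.44 (1.27, 0.00158). Of the 25 genes for GR, chaperones and coregulators 7 differed positively and 2 negatively, the latter 4 without siBRMsiNS replicate 3.

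Against the BRM background the effect differed in 1593 genes (10.7%), 794 positive (5.35%) and 799 negative (5.39%), and in 2600 with a replicate block within each background. That count was 901 without siCHD9siNS replicate 1, 1021 without siCHD9siNS replicate 2, 746 without siCHD9siHic5 replicate 1 and 2435 without siBRMsiNS replicate 3. Of 12 histone genes 9 differed positively, 5 without siCHD9siNS replicate 1, and none (0) negatively: HIST2H2BE was at 1.18 against -0.20 (difference 1.39, adjusted p = 0.00426) and HIST1H2BD at 2.24 against -0.01 (2.26, 0.0158). The coactivators again differed, NCOA2 with 0.93 against -0.53 (1.46, 0.000229), NCOA1 with a difference of 1.00 (0.00115), NCOA3 with 0.75 (0.00465) and EP300 with 0.58 against -0.40 (0.98, 0.00286). CHD9 stood at 0.83 against -0.46 (1.29, 0.00360). NR0B1 (2.1, 0.0104), INHBA (1.39, 0.00806), LTBP1 (1.38, 0.0109) and PTK2 (0.66, 0.0117) rose more on the CHD9 background, and UQCRQ (-1.10, 0.00753) and ENO1 (-0.94, 0.00806) fell more. Both differences were called in the same direction for 595 genes, 398 of them also called that way on the CHD9 background.

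**Figure D5:**
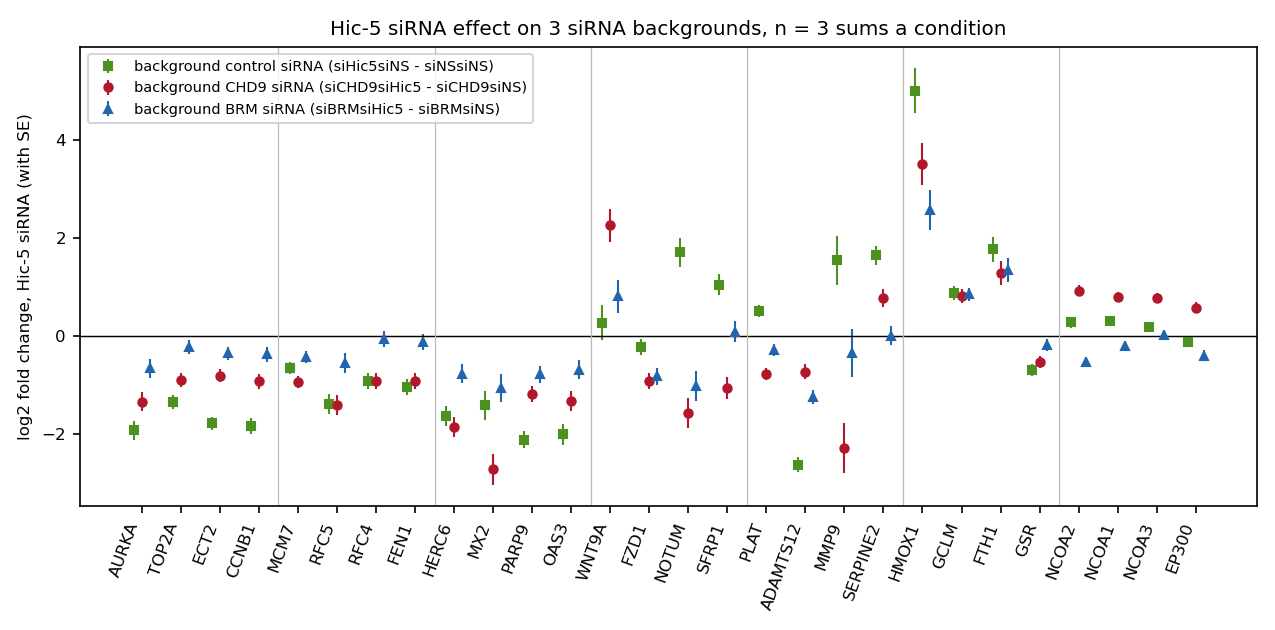
Log2 fold change ± SE of Hic-5 siRNA on the control (green squares), CHD9 (red circles) and BRM (blue triangles) backgrounds for 4 genes of each of 7 lists. On the CHD9 background the CHD9 transcript differs between the conditions as well. AURKA, TOP2A, ECT2 and CCNB1 lie below 0 on all backgrounds and lowest on the control one, NOTUM, SFRP1, MMP9 and PLAT lie on opposite sides of 0 on the control and CHD9 backgrounds, and the p160 coactivators are highest on the CHD9 background.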

How the data were processed

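RNA-seq of 36 libraries was deposited as 1 table of 15186 genes, of which 12 libraries are the subject here and the others share the fits. Per the submitters' processing notes the authors used TopHat2 2.1.1, the GRCh38 build and edgeR; the read counter, gene models and edgeR release were not given in the sources used here. Values deposited are counts of reads per gene: all are whole numbers with differing library totals, although the table's own name speaks of normalised CPM. Of the genes, 15116 (99.5%) matched RefSeq by Entrez ID, and 0 columns belonged to another series.

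Members and gene lists were chosen with earlier results of these data known. Vehicle and dex libraries of 1 condition and number proved to be paired (residual correlations 0.404 to 0.905), so for results over both hormones their counts were summed, giving 18 sums, 6 condition means and 12 residual degrees of freedom. Genes with a CPM above 1 in at least 3 values were tested (14835, with 351 left out). edgeR 4.0.16 quasi-likelihood fits in R 4.3.3 used upper-quartile factors, with Benjamini-Hochberg adjustment over all tested genes and a threshold of 0.05. Vehicle, dex and dex-difference tests used the 36 libraries with 12 group means (24 residual degrees of freedom, 15179 genes). The median biological coefficient of variation was 15.4% for sums and 6.81% with the replicate block of the dex difference. CPM values were scaled by the same factors.

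Numbers also pair siCHD9siHic5 with siCHD9siNS (correlations 0.494, 0.496 and 0.495 for the sums), since the labels put replicates on different days and every pair passed the threshold of 0.1. A block within each background was added after this was seen and is printed where it changes the call of a named gene or moves a count by over 1.5 times. No libraries were copies: over 12 pairs the chi-square divided by its degrees of freedom was 30.6 or more. p-values measure the spread between replicates of 1 cell line.

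Named genes are the 3 siRNA targets and NR3C1, the 12 largest rises and falls among called genes of mean CPM 1 or more whose groups do not overlap, the called members of smallest p in each list (at most 4), and the 5 largest differences each way; some genes of this rule are not reported here, and genes outside it are said to be chosen after their values were seen or did not pass the test. Alternatives were trimmed-mean or no scaling, other filters, DESeq2 1.42.0, limma 3.58.1 voom, other units of replication, replicate blocks and leaving out each replicate. The fits were tested on simulated data.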

Additional observations from a re-analysis of the deposited data

Results flagged for a closer look

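The effect of Hic-5 siRNA differed between backgrounds by the test of the difference in 3007 genes for the CHD9 against the control background and in 1593 for the CHD9 against the BRM background, and the dex response differed between siCHD9siHic5 and siCHD9siNS in 260 genes with the replicate block (0 without it). On the CHD9 background Hic-5 siRNA and the higher CHD9 transcript cannot be told apart.

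Against the control background the largest positive differences (log2) were those of PLAC1 (3.36), CCDC64B (3.13), PADI4, an arginine deiminase (3.09), SLFN11 (3.05) and the non-coding AATBC (3.05). PLAC1 had means over 6 libraries of 0.705 CPM in siNSsiNS, 0.120 in siHic5siNS, 1.5 in siCHD9siNS and 2.62 in siCHD9siHic5, so it was lower with Hic-5 siRNA on one background and higher on the other. Large negative ones were those of CHI3L1, a chitinase-like protein (-4.50), KRT14, keratin 14 (-4.20), C8orf4 (-4.09) and A2M, alpha-2-macroglobulin (-3.93). A2M had 74.1, 472, 35.8 and 14.7 CPM in the same order as PLAC1. C8orf4 was at -2.66 (adjusted p = 0.158) without siCHD9siNS replicate 2, and CCDC64B and SLFN11 missed the threshold without several single replicates (adjusted p up to 0.0805 and 0.0793).

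Against the BRM background the largest positive differences were those of ZNF469 (3.28), COL24A1, a fibrillar collagen (2.87), CELF6, an RNA-binding protein (2.66), MUC19 (2.59) and ZBTB20, a transcriptional repressor (2.32). ZNF469 had means of 26.0 CPM in siCHD9siNS and 98.1 in siCHD9siHic5, against 5.53 in siBRMsiNS and 2.20 in siBRMsiHic5. The largest negative ones were PRR9 (-4.51), SEC16B (-4.02), C6orf99 (-3.19), DIRC3 (-3.01) and EDN2 (-2.98). SEC16B went from 3.04 to 0.273 CPM on the CHD9 background and stood at 1.15 and 1.70 on the BRM background. DIRC3 was at -4.52 without siBRMsiNS replicate 3. DIRC3, EDN2, MUC19 and C6orf99 missed the threshold without 1 or more single replicates (adjusted p up to 0.0623, 0.0979, 0.0707 and 0.0666).

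The dex response was more positive with siCHD9siHic5 for SLC15A3, a peptide transporter (1.41), TXNIP (1.37), GGT5 (1.12), CEMP1 (1.00) and ITPKA, an inositol trisphosphate kinase (0.99). It was more negative for LOC101927770 (-1.53), LOC100190986 (-1.37), TG, thyroglobulin (-1.37), POTEE (-1.37) and POTEF (-1.32), the last pair being near-identical paralogs whose counts are uncertain. None of these 10 was called without siCHD9siNS replicate 1 or 2 or siCHD9siHic5 replicate 2 or 3.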

How the results depend on the processing

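Over both hormones 5152 genes were called, and between 4266 (mean CPM of at least 5) and 7704 (36 libraries taken as independent) under the other settings except one: 12 libraries with hormone as a covariate, which takes paired libraries as independent, gave 8222. A replicate term shared by all conditions gave 5784 and a replicate block within each background 6452, 5090 of them shared with the main 5152. The block moved the dex count from 4349 to 6729, the difference from the BRM background from 1593 to 2600 and the dex difference from 0 to 260, where DESeq2 called 12; among lists it moved rises of YAP targets from 1 to 2 and of TGF-beta targets from 1 to 2. Over both hormones, beside these and the block values printed in the report, the block moved no other list's count by over 1.5 times and changed the call of no other gene named for its change there. Leaving out 1 replicate gave 3718 to 4612 genes over both hormones, 4391 to 5082 in vehicle, 3074 to 3999 with dex, 2086 to 2951 for the difference from the control background, 746 to 2435 for that from the BRM background, 0 to 0 for the dex difference without and 0 to 343 with the block; the cause was not tested. Over the named genes' alternatives 2423 values kept their direction and side of the threshold, 161 lost the call, 5 gained it and 0 reversed. Counts of 28.6 to 47 M per library leave low genes imprecise: MYL4, SEC16B, PRR9 and MX2 lay under 1 CPM in every siCHD9siHic5 library, and folds there depend on few reads. The same limit holds for other named genes, by the counts summed over the 3 libraries of their lowest group. These were 19 for STC2, 22 for TMEM176A, 23 for TNNI1 and 29 for SAA2. They were 35 for APOL3, 36 for TMEM37, 36 for MYL1 and 40 for CRYBA4.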
